A study of Mus musculus with 6 samples.

Results

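The genes described here code, in the nucleus, for subunits of the mitochondrial respiratory chain and of the ATP synthase. They were chosen by gene symbol, as every measured gene of the Nduf (A, B, C, S and V), Sdh, Uqcr, Cox4 to Cox8 and Atp5 families together with Cyc1. The rule found 77 of the 12556 genes in the deposited table, of which 36 belong by symbol to complex I, 3 to complex II, 8 to complex III, 14 to complex IV and 16 to the ATP synthase. The symbol rule also takes in 3 genes that code for no subunit, Atp5s, Atp5sl and Cox7a2l, and it places Ndufa4, which is known as a subunit of complex IV, with complex I. RNA was sequenced from primary cultures of the RPE (retinal pigment epithelium, which lies behind the photoreceptors and nourishes them), taken from C57BL/6J mice that were 10 to 12 days old. The cultures grew for 5 to 6 days on permeable supports with pores of 0.4 µm. POS-challenged cultures (n = 3) received mouse photoreceptor outer segment (POS) membranes for 1.5 h at about 10 POS per RPE cell, and unchallenged cultures (n = 3) served as their control. The comparison asks which transcripts differ soon after the cells are offered the material they take up every day in the eye. In bulk RNA of this kind, fewer cells of a type and less RNA per cell cannot be told apart.

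The respiratory chain carries electrons from NADH (complex I) and succinate (complex II) through complex III to oxygen at complex IV and pumps protons across the inner mitochondrial membrane, and the ATP synthase uses that gradient to make ATP. Most subunits are encoded in the nucleus and are needed in fixed proportions with the few encoded in mitochondrial DNA. The RPE is rich in mitochondria and is known to rely on their respiration, in part by burning fatty acids from ingested outer segments.

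Nuclear respiratory factor 1 (NRF1) is a transcription factor known for sites in promoters of this gene family. Its motif, the letters GCGCA and GCGC with any 1 base between them, searched on both strands, was present in 16 of 70 promoter windows of the genes, or 22.9%, each running from 250 bases before to 50 bases after an annotated start. These windows belonged to 15 of the 64 genes that have one in the RefSeq table. The same letters were found in 9.2% of the 12528 windows of all genes in the deposited table. The motif of GABP, another activator of the family, spelled CCGGAAG, was in 20.0% of the genes' windows and 16.7% of all windows, and the YY1 motif AAGATGG was in 18.6% and 6.85%. No match of one motif overlapped a match of another. The stretches below, from RefSeq on GRCm38.p6, are shown because they carry the shared motif close to genes of 4 complexes, and capitals mark its matches. They lie at chr17:56717687-56717726 on the plus strand (Ndufa11), chr4:123718260-123718299 on the minus strand (Ndufs5), chr13:74350226-74350353 on the minus strand (Sdha), chr5:115349051-115349135 on the minus strand (Cox6a1), chr11:115420036-115420075 on the minus strand (Atp5h) and chr5:108434425-108434464 on the minus strand (Atp5k).
Ndufa11: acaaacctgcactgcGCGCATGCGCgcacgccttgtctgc
Ndufs5: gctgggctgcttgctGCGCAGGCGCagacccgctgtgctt
Sdha: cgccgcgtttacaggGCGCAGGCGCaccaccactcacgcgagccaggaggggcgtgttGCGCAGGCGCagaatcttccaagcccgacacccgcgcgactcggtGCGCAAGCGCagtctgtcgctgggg
Cox6a1: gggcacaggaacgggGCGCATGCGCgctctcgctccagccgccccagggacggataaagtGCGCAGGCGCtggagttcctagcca
Atp5h: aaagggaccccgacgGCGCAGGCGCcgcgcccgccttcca
Atp5k: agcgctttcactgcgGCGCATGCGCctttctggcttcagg
Sdha, the subunit of complex II that binds FAD, had 3 matches within these bases. A match describes the letters and shows no binding.

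POS challenge for 1.5 h left no member past the test. Counts were 0 of 77 in limma at an adjusted p of 0.05, where 0.0956% of all genes were called (12 of 12556, with 0.0637% higher and 0.0319% lower in POS-challenged cultures), and 0 of 77 in the authors' deposited table, where 2.55% of genes were called (0.871% higher and 1.68% lower). At an unadjusted p under 0.05, limma had 3 of the 77, 1 higher and 2 lower in POS-challenged cultures, against 11.5% of all genes (4.87% higher and 6.58% lower). The log2 fold change, challenged over unchallenged on the log2(value + 1) scale, ran between -0.48 and 0.24 with a median of -0.03, beside a median of 0.01 over all genes. It was under 0.2 in size for 70 of the 77 genes, or 90.9%, and for 69.6% of all genes. The median size was 0.06 for these genes and 0.12 for all genes.

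These genes are more highly expressed than most, and higher genes are measured more closely, so other genes of the same level are a closer background. Among the 2704 other genes between the quartiles of the members' level (852 to 2205 normalized counts), 83.2% had a log2 fold change under 0.2 in size, and the median size was 0.09. The 95% confidence interval of limma, not adjusted for the number of genes, lay wholly within 0.5 log2 units of no change for 68 of the 77 genes (88.3%), for 82.7% of the genes of like level and for 59.7% of all genes. The 9 genes whose interval reached further were Ndufa6, Ndufa4l2, Cox4i2, Cox6b2, Cox7a1, Cox8b, Atp5l, Atp5s and Atp5sl. For those genes the libraries do not bound the change to that size.

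**Figure D1:**
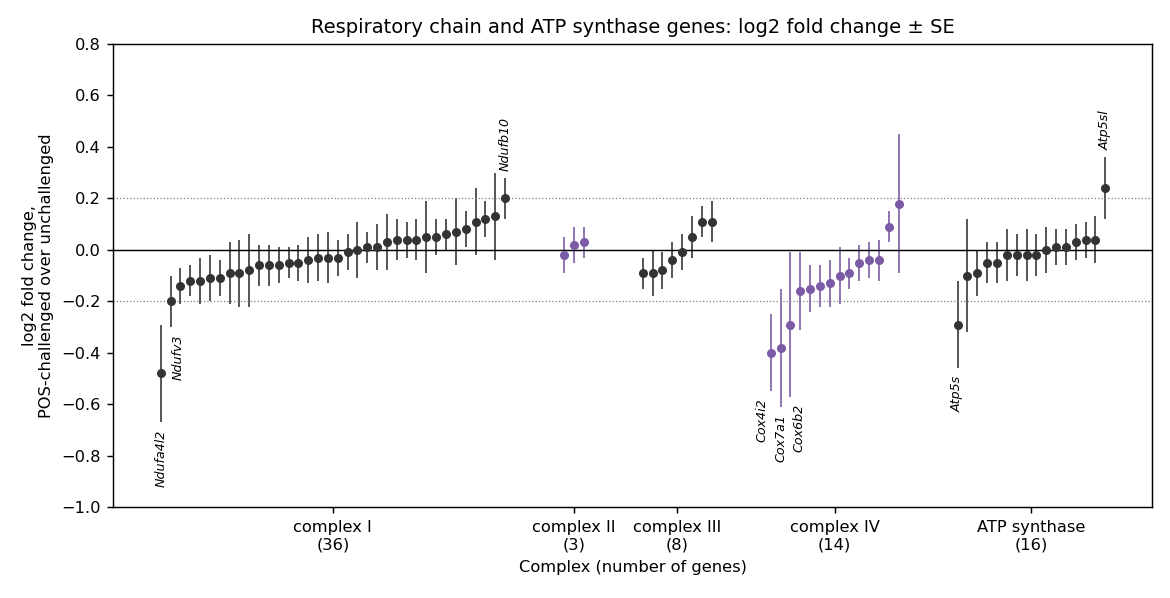
Log2 fold change of each of the 77 genes, POS-challenged over unchallenged (y axis), with its standard error from limma as a bar, ordered within each complex (x axis, number of genes in brackets). Dotted lines mark 0.2 either way, and 70 of the 77 genes lie between them, with Ndufa4l2 (-0.48) and Cox4i2 (-0.40) lowest.

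Groups that did not overlap were no more frequent than in the whole table. In 5 genes every POS-challenged library was above every unchallenged one, against 9.56% of all genes, and these were Ndufb10, Ndufs7, Ndufv1, Uqcrc1 and Atp5sl. In 7 genes every POS-challenged library was below, against 10.4% of all genes, and these were Ndufa2, Ndufa7, Ndufb8, Ndufv3, Uqcr10, Cox4i2 and Cox7a2l. The direction was positive for 29 genes and negative for 48, beside 6491 positive and 6065 negative over all genes. This lean rested on 1 library, since without POS-challenged replicate 3 the median log2 fold change of the members was 0.02.

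Complex I oxidises NADH and is the largest enzyme of the chain. Its 6 measured core subunits, which as a set though not each hold the flavin and the iron-sulfur clusters, had log2 fold changes between -0.05 and 0.12 (median 0.04). Ndufv1, which binds the flavin that accepts electrons from NADH, had 1831, 1893 and 1987 normalized counts in POS-challenged libraries and 1680, 1790 and 1796 in unchallenged ones. Its groups did not overlap, at a log2 fold change of 0.12 ± 0.07 (SE, adjusted p = 0.53, limma). Ndufs7, which carries the last iron-sulfur cluster before coenzyme Q, had 905, 858 and 849 in POS-challenged libraries and 803, 829 and 831 in unchallenged ones, a log2 fold change of 0.08 (adjusted p = 0.652, limma). The other core subunits overlapped between the groups. Ndufs1 averaged 2257 ± 132 normalized counts in POS-challenged and 2194 ± 161 in unchallenged cultures (SD, n = 3 each). Ndufv2 averaged 1483 ± 75.6 in POS-challenged and 1444 ± 79.2 in unchallenged cultures. Ndufs3 averaged 854 ± 17.4 in POS-challenged and 886 ± 39.4 in unchallenged cultures, and Ndufs8 averaged 1101 ± 56.6 in POS-challenged and 1109 ± 42.7 in unchallenged cultures. In all 4 genes the difference between the means was smaller than the larger SD.

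Around that core, complex I has many accessory subunits, which surround and stabilise it. The 30 other genes grouped with complex I had a median log2 fold change of -0.04, with 11 positive and 19 negative. Ndufb10, an accessory subunit of the membrane arm encoded at chr17:24722060-24724423 (GRCm38.p6), had 1269, 1215 and 1199 normalized counts in POS-challenged libraries and 972, 1105 and 1138 in unchallenged ones. It was higher in all 3 POS-challenged libraries, at a log2 fold change of 0.20 ± 0.08 (SE, adjusted p = 0.421, limma), and its lowest unchallenged library was replicate 1, without which the log2 fold change was 0.13. Ndufv3, an accessory subunit of the NADH-binding module, had 1745, 1614 and 1370 in POS-challenged libraries and 1812, 1805 and 1788 in unchallenged ones. The unchallenged values lay close together and the POS-challenged ones were all lower, with replicate 3 lowest, at a log2 fold change of -0.20 ± 0.10 (adjusted p = 0.476, limma).

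Ndufa4l2, at chr10:127509274-127517154, is a paralog of Ndufa4 and is known as a target of the hypoxia-inducible factor HIF-1 that lowers respiration when oxygen is scarce. It had 1943, 2419 and 1466 normalized counts in POS-challenged libraries and 3027, 2782 and 2215 in unchallenged ones. POS-challenged replicate 2 was above unchallenged replicate 3, so the groups overlapped. The means were 1943 ± 476 in POS-challenged and 2675 ± 416 in unchallenged cultures (SD, n = 3 each), with a log2 fold change of -0.48 ± 0.19 (SE, unadjusted p = 0.041, adjusted p = 0.416, limma) and a 95% interval of -0.93 to -0.03. Without POS-challenged replicate 3 the log2 fold change was -0.29. In the authors' deposited table its adjusted p was 0.259. Its paralog Ndufa4 had 2412, 2183 and 2049 in POS-challenged libraries and 1998, 2286 and 2305 in unchallenged ones, which overlapped, with a log2 fold change of 0.01 ± 0.09 (SE). Per kilobase of transcript, Ndufa4 stood at 3616 and Ndufa4l2 at 2472 normalized counts over the 6 libraries.

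Complex II oxidises succinate and belongs to both the chain and the tricarboxylic acid cycle. Its 3 measured genes had log2 fold changes between -0.02 and 0.03. This was the narrowest range of the 5 groups, but complex II is also the smallest group, and a range widens with more genes. Sdha had 6159, 6217 and 5826 normalized counts in POS-challenged libraries and 5679, 6128 and 6161 in unchallenged ones. Sdhb, the iron-sulfur subunit, had 1730, 1637 and 1700 in POS-challenged libraries and 1686, 1633 and 1636 in unchallenged ones. Sdhc, a membrane anchor, had 2777, 2875 and 2665 in POS-challenged libraries and 2656, 2948 and 2838 in unchallenged ones. All 3 genes overlapped between the groups. The adjusted p was 0.863 or more for each in limma, and each 95% interval lay within 0.5 log2 units.

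Complex III passes electrons from coenzyme Q to cytochrome c. Its 8 genes had log2 fold changes between -0.09 and 0.11 (median -0.02). Uqcrc1, a core subunit on the matrix side, had 3426, 3430 and 3542 normalized counts in POS-challenged libraries and 3109, 3139 and 3389 in unchallenged ones. The groups did not overlap, at a log2 fold change of 0.11 ± 0.06 (SE, adjusted p = 0.532, limma). Its partner core subunit Uqcrc2 had 3541, 3371 and 3502 in POS-challenged libraries and 3042, 3571 and 3472 in unchallenged ones, which overlapped. Uqcrh, the acidic hinge protein that helps to bind cytochrome c, had 3078, 3103 and 2579 in POS-challenged libraries and 2935, 3252 and 3114 in unchallenged ones. Its value in POS-challenged replicate 3 was the lowest of the 6, and its log2 fold change was -0.09 ± 0.09 (SE), or 0.00 without that library.

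Complex IV reduces oxygen to water, and several of its nuclear subunits exist as isoforms that differ by tissue or oxygen supply. It had the lowest median log2 fold change of the 5 groups, -0.11, with 12 of its 14 genes negative, and no gene past the test. Without POS-challenged replicate 3 the median was -0.06. Cox4i2, at chr2:152753916-152765039, codes for the isoform of subunit 4 that is known in other cells to be induced by low oxygen. It had 744, 814 and 637 normalized counts in POS-challenged libraries and 1175, 932 and 818 in unchallenged ones. Every POS-challenged library was lower, but POS-challenged replicate 2 and unchallenged replicate 3 were nearly level. The means were 732 ± 89.3 in POS-challenged and 975 ± 183 in unchallenged cultures (SD, n = 3 each), with a log2 fold change of -0.40 ± 0.15 (SE, unadjusted p = 0.0312, adjusted p = 0.395, limma) and a 95% interval of -0.76 to -0.05. Without unchallenged replicate 1 the log2 fold change was -0.26. In the authors' deposited table its adjusted p was 0.218.

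Cox4i1, at chr8:120668225-120674209, codes for the ubiquitous isoform of the same subunit. It had 6527, 6487 and 6064 normalized counts in POS-challenged libraries and 6383, 6503 and 6927 in unchallenged ones. These overlapped, at a log2 fold change of -0.05 ± 0.07 (SE). Per kilobase of transcript, Cox4i1 stood at 8700 and Cox4i2 at 1174 normalized counts over the 6 libraries, so the ubiquitous isoform was the more abundant transcript. The difference between the isoforms in their response was not tested.

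Isoforms known from muscle and testis were low in these cultures and overlapped between the groups. Cox7a1, the heart and muscle isoform of subunit 7a, had 99.8, 87.0 and 61.5 normalized counts in POS-challenged libraries and 109, 129 and 85.4 in unchallenged ones, a log2 fold change of -0.38 ± 0.23 (SE, adjusted p = 0.551, limma). Without POS-challenged replicate 3 it was -0.19, and without unchallenged replicate 2 it was -0.24. Cox6b2, the testis isoform of subunit 6b, had 211, 209 and 116 in POS-challenged libraries and 186, 282 and 179 in unchallenged ones. Its log2 fold change of -0.29 was 0.00 without POS-challenged replicate 3. Cox8b, a heart and muscle isoform, had 93.4, 75.9 and 51.4 in POS-challenged libraries and 50.8, 61.8 and 79.9 in unchallenged ones. None of the 3 was separated between the groups. The ubiquitous counterparts of Cox6b2 and Cox8b were far higher: Cox6b1 averaged 3238 ± 294 in POS-challenged and 3579 ± 229 in unchallenged cultures, and Cox8a averaged 2751 ± 391 in POS-challenged and 2923 ± 135 in unchallenged cultures (SD, n = 3 each). Cox6a1, the ubiquitous isoform of subunit 6a, had 3310, 3103 and 2844 in POS-challenged libraries and 2917, 3328 and 3245 in unchallenged ones, with overlap. Cox7a2l, which is known to help join complexes III and IV into supercomplexes, had 1875, 1803 and 1798 in POS-challenged libraries and 1945, 1993 and 1891 in unchallenged ones. Its groups did not overlap, at a log2 fold change of -0.09 ± 0.06 (SE, adjusted p = 0.584, limma). The isoform genes as listed, 11 measured of 14, had a median log2 fold change of -0.10. Muscle markers were measured for 6 of 9 genes. They summed to between 83491 and 113934 normalized counts in POS-challenged and between 61156 and 103366 in unchallenged libraries. Most of this was Acta2 (mean 73837 in POS-challenged and 61404 in unchallenged cultures) and Tagln (26512 and 25562). In the same order, Cnn1 averaged 816 and 710, Myh11 590 and 605, Acta1 485 and 281, and Des 102 and 127. The sum therefore does not measure muscle cell content. The part of other cells in the levels of muscle isoforms was not tested.

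**Figure D2:**
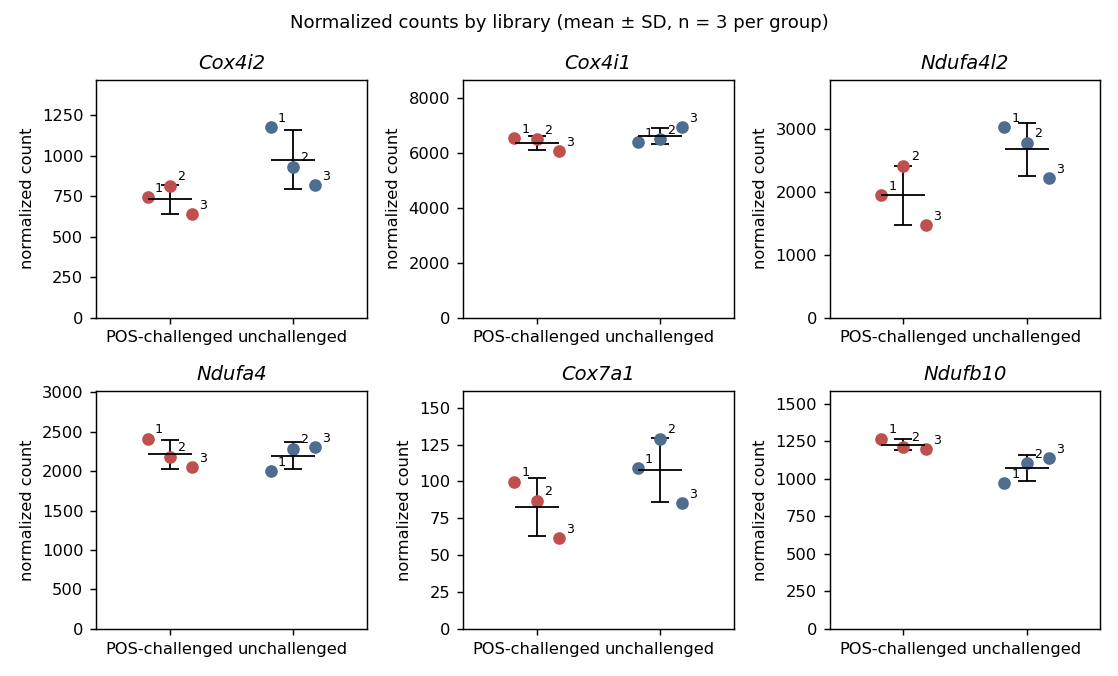
Normalized counts (y axis, from 0) of 6 genes in POS-challenged (left, red) and unchallenged (right, blue) libraries, with the replicate number beside each point and the mean ± SD in black (n = 3 per group). Cox4i2 lies between 637 and 814 in POS-challenged and between 818 and 1175 in unchallenged libraries, while Cox4i1 and Ndufa4 overlap between the groups.

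The ATP synthase has a catalytic F1 head and a membrane part, Fo, joined by stalks. The 5 genes of the head had log2 fold changes between -0.02 and 0.04, and the 9 measured genes of the Fo part, the stalks and associated subunits between -0.10 and 0.04. Atp5b, the catalytic beta subunit, was the most abundant member. It had 25642, 25514 and 25310 normalized counts in POS-challenged libraries and 23993, 25678 and 25014 in unchallenged ones, an overlap with unchallenged replicate 1 lowest. Atp5a1, the alpha subunit, had 14495, 14428 and 13750 in POS-challenged libraries and 13505, 13808 and 14252 in unchallenged ones, which also overlapped. The c subunits form the rotor ring and are encoded by several genes for the same mature protein. Atp5g3 had 6184, 5979 and 5362 in POS-challenged libraries and 5200, 6030 and 5840 in unchallenged ones, and Atp5g1 had 485, 489 and 438 in POS-challenged libraries and 452, 533 and 449 in unchallenged ones. Neither gene was separated between the groups. Atp5g2 was not analysed here.

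The extremes among the Atp5 symbols were the genes that code for no subunit. Atp5sl, named Dmac2 in RefSeq and known as an assembly factor of complex I, had 282, 268 and 341 normalized counts in POS-challenged libraries and 260, 243 and 246 in unchallenged ones. Its groups did not overlap, with POS-challenged replicate 3 highest, at a log2 fold change of 0.24 ± 0.12 (SE, adjusted p = 0.49, limma), which was 0.14 without that library. Atp5s, named Dmac2l, had 111, 129 and 114 in POS-challenged libraries and 117, 167 and 152 in unchallenged ones, which overlapped, at a log2 fold change of -0.29 ± 0.17 (SE, adjusted p = 0.532, limma), which was -0.18 without unchallenged replicate 2 and -0.44 without unchallenged replicate 1. Without these 2 genes and Cox7a2l the median of the members stayed at -0.03.

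The genes also differed together between single libraries. The mean log2 deviation of the 77 genes from their own means was 0.05, 0.00 and -0.10 in POS-challenged replicates 1, 2 and 3, and -0.04, 0.07 and 0.03 in unchallenged replicates 1, 2 and 3. POS-challenged replicate 3 was thus the low library of its group and unchallenged replicate 1 the low one of the other. Of the 77 genes, 40 had their lowest value in POS-challenged replicate 3 (51.9%, against 28.8% of all genes) and 25 had it in unchallenged replicate 1 (32.5%, against 20.4%). The share of all normalized counts taken by the 77 genes was 0.602%, 0.579% and 0.614% in POS-challenged and 0.544%, 0.588% and 0.580% in unchallenged libraries. These shares overlapped. POS-challenged replicate 3 had the highest share, with the lowest total of normalized counts over all genes (25064110, against 27578273 to 28686047 in the other 5 libraries). Without POS-challenged replicate 3 the median log2 fold change of the 77 genes was 0.02, and 72 of them were under 0.2 in size.

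**Figure D3:**
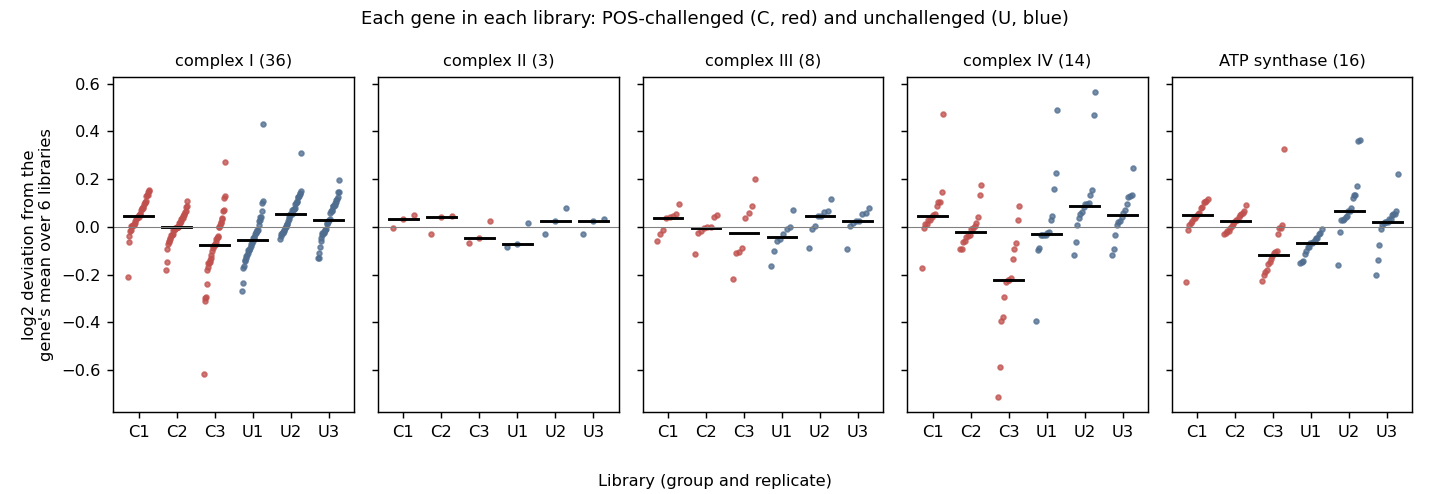
Log2 deviation of each gene from its own mean over the 6 libraries (y axis), by library (x axis: C1 to C3 POS-challenged, red, and U1 to U3 unchallenged, blue) and complex (panels, number of genes in brackets), with the median as a black line. POS-challenged replicate 3 and unchallenged replicate 1 lie lowest, and the mean deviations over all 77 genes are -0.10 and -0.04.

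The low values of POS-challenged replicate 3 went with transcript length. Across the 77 genes, Spearman's rho between that library's deviation and the length of the gene's representative transcript was 0.43, beside 0.08 across the 11827 genes of the table with a length, and it was between -0.27 and -0.02 in the other 5 libraries. Genes are not independent replicates, and all 77 values come from 1 library. The 39 members of at most 745 bases had a median deviation of -0.12 in POS-challenged replicate 3, the longer members had -0.05, and the 271 other short genes had -0.04. Many small subunits, such as Cox7a1 (485 bases), Cox8a (550) and Uqcrh (547), are in the short group. Whether RNA quality or library preparation played a part was not tested.

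**Figure D4:**
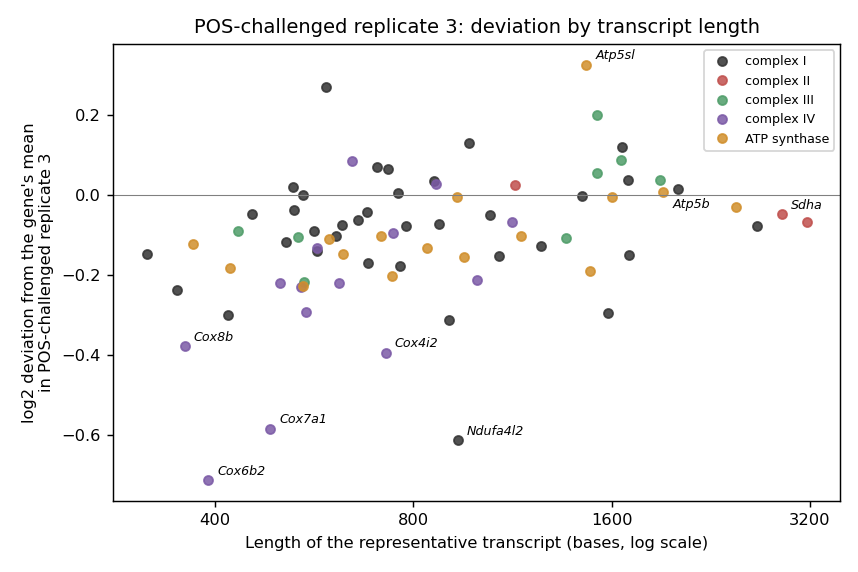
Log2 deviation of each gene from its own mean in POS-challenged replicate 3 (y axis) against the length of its representative transcript in bases (x axis, log scale), coloured by complex. Short genes lie lower than long ones (Spearman's rho 0.43 over 77 genes), and Cox6b2, Ndufa4l2 and Cox7a1 lie lowest.

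Levels per kilobase of transcript, averaged over the 6 libraries, ran between 59.5 and 13148 normalized counts, with a median of 1570. Atp5b was highest, followed by Cox4i1 (8700), Atp5g3 (8075) and Atp5a1 (5682). The median per kilobase was 1313 for complex I, 1463 for complex II, 1911 for complex III, 1994 for complex IV and 2652 for the ATP synthase. Genes placed with one complex thus differed widely in level per kilobase, though subunits are needed in fixed proportions as proteins. The range takes in genes that code for no subunit, tissue isoforms and genes whose reads may be misassigned. The 9 genes below 200 per kilobase were Atp5l, Atp5s, Ndufa8, Ndufa6, Ndufb4, Cox7c, Atp5sl, Cox8b and Cox7a1.

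Many of these genes have near-identical copies elsewhere in the genome, pseudogenes among them, which bears on how reads were assigned. In 33 of the 77 genes, more than 5% of the 50-base windows of the transcript were also found in a transcript of another gene. The share was 84.8% for Atp5l, 66.0% for Atp5g1, 53.0% for Cox7c and 37.0% for Ndufb4, and the levels of these genes are uncertain. Atp5l, with 31.7, 34.2 and 27.2 normalized counts in POS-challenged libraries and 31.9, 41.5 and 27.7 in unchallenged ones, was the lowest member. Low values were not limited to such genes, since Ndufa6 and Ndufa8 shared no window and stood at 92.1 and 90.4 per kilobase. Over the 77 genes, Spearman's rho between the level per kilobase and the shared percentage was 0.02. Over the 44 genes with at most 5% of windows shared, the median log2 fold change was -0.02.

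The 15 genes with an NRF1 match in a promoter window had log2 fold changes between -0.06 and 0.13 (median 0.00), and the 49 genes whose windows had none ranged between -0.38 and 0.24 (median -0.05). Cox6a1, Ndufa11, Ndufs5, Sdha, Atp5h and Atp5k, whose stretches are printed above, all lay between -0.05 and 0.02. Both sets straddled 0. Genes without a promoter window are in neither set, among them the 2 lowest members, Ndufa4l2 (-0.48) and Cox4i2 (-0.40).

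Other genes of the pathway gave no call in limma or in the authors' deposited table. Of the subunits and inhibitors with other names, 8 of 9 were measured and 0 passed. Higd1a, a small protein of the inner membrane that binds complex IV, had 2374, 2180 and 1816 normalized counts in POS-challenged libraries and 2745, 2652 and 2620 in unchallenged ones. All POS-challenged libraries were lower, at a log2 fold change of -0.34 ± 0.10 (SE, adjusted p = 0.328, limma). Of the complex I assembly factors, 14 of 14 were measured and 0 passed, with 11 positive and a median log2 fold change of 0.09. Their mean log2 deviation was 0.00, -0.03 and 0.18 in POS-challenged replicates 1, 2 and 3. In unchallenged replicates 1, 2 and 3 it was -0.06, -0.06 and -0.03, so POS-challenged replicate 3 stood out. Ndufaf4 had 585, 598 and 715 in POS-challenged libraries and 525, 507 and 495 in unchallenged ones, a log2 fold change of 0.31 (adjusted p = 0.355, limma). Of the assembly factors of complexes II to V, 31 of 34 were measured and 0 passed (median 0.02). Coa7, which is needed for complex IV, had 249, 252 and 339 in POS-challenged libraries and 230, 196 and 204 in unchallenged ones, a log2 fold change of 0.40 (adjusted p = 0.395, limma). In both assembly genes POS-challenged replicate 3 was the highest library, the opposite of its place among the subunits.

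Of the genes of mitochondrial biogenesis and mitochondrial DNA expression, 13 of 18 were measured and 0 passed (median log2 fold change 0.01). Polrmt, the RNA polymerase of mitochondria, had 754, 725 and 984 normalized counts in POS-challenged libraries and 614, 636 and 723 in unchallenged ones, a log2 fold change of 0.31 (adjusted p = 0.439, limma). All POS-challenged libraries were higher, with replicate 3 highest. Of the tricarboxylic acid cycle genes, 18 of 19 were measured and 0 passed (median 0.05), and Pdhx, a component of pyruvate dehydrogenase, had 535, 514 and 537 in POS-challenged libraries and 445, 462 and 463 in unchallenged ones (log2 fold change 0.21, adjusted p = 0.388, limma). Of the genes of coenzyme Q synthesis, 11 of 13 were measured and 0 passed (median 0.07), and Coq9 had 618, 578 and 678 in POS-challenged libraries and 503, 553 and 558 in unchallenged ones (log2 fold change 0.21, adjusted p = 0.445, limma). Both genes were higher in every POS-challenged library. The 13 subunits encoded in mitochondrial DNA were not analysed here, nor were Sdhd, Atp5i, Cox6a2, Cox7a2 and Cox8c.

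Summed over the table, the libraries held 24869273 to 30420028 reads in POS-challenged and 25667464 to 28808338 in unchallenged cultures. These totals were inferred, taking the smallest step between the values of a library as 1 read, and are not raw counts given by the authors. Of the RPE markers, 16 of 17 were measured. Tyr, the enzyme of pigment synthesis, had 26214, 23924 and 15831 normalized counts in POS-challenged and 16469, 25494 and 23165 in unchallenged libraries. Its log2 fold change was 0.01. Of the 16 markers, 13 had a positive and 3 a negative log2 fold change (median 0.16). Neither limma nor the authors' adjusted p-values called any of them. Mitf, Krt18 and Krt8 were higher in every POS-challenged library than in any unchallenged one. Their log2 fold changes were 0.48, 0.26 and 0.32 (adjusted p = 0.385, 0.395 and 0.416, limma). The other markers overlapped between the groups. The RPE list summed to 64994, 58222 and 43184 in POS-challenged and 42735, 56252 and 57441 in unchallenged libraries, with Tyr its largest part in each. This sum was lowest in the same 2 libraries in which most respiratory chain genes were lowest. So were the sums of the muscle, choroidal melanocyte and Mueller glia markers. Mueller glia markers, for example, came to 77736 in POS-challenged replicate 3 and 92989 in unchallenged replicate 1. The macrophage, fibroblast and endothelium sums were not lowest in both. The part of these lists in the members' values was not tested. Of 18 photoreceptor markers 2 were measured, Sag and Cdhr1, which together came to 926 to 1538 in POS-challenged and 109 to 153 in unchallenged libraries. Both were higher in limma (adjusted p = 0.00109 and 0.0417), and their part in the members' values was not tested. The mean log2 level of 17 interferon-stimulated genes was 5.46, 6.63 and 8.75 in POS-challenged and 11.03, 6.05 and 11.53 in unchallenged libraries. With unchallenged replicates 1 and 3 left out, where these genes were high, 1 unchallenged library was left. The median log2 fold change of the 77 genes was then -0.07. Calls from a fit with 1 library in a group cannot show whether members differ and are not given.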

How the data were processed

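Poly(A) RNA of 6 cultures was sequenced, with 1 library for each biological replicate, per the labels. The tools GSNAP and DESeq2 and the build mm10 of the authors' processing are named in the submitters' processing notes. The sources used here give no versions, annotation, counting tool or strand setting. The deposited table gives, for 12556 genes, a signal per library, which per its values is each gene's reads after division by a size factor of the library, and the authors' base mean. Per the file headers it also holds the authors' log2 fold change with its error, a score (the test statistic), and raw and adjusted p-values, of which the adjusted one is missing for 500 genes.

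The values are not raw counts, so the test was limma's moderated one with an intensity trend (limma 3.58.1, R 4.3.3), run on log2(value + 1). Genes needed a mean of at least 10, group was the only term, and p-values were two-sided with Benjamini-Hochberg adjustment over all 12556 genes, with calls under 0.05. The fit had 4 residual degrees of freedom per gene and a prior of 3.22. The procedure was tested on simulated data. Exact permutation of 3 against 3 libraries was not used, since its smallest two-sided p is 0.1. Labels do not say whether replicates came from separate litters or days, so p-values measure the spread between these cultures. Replicates of a group differed by more than sampling noise.

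The genes and gene lists were chosen with earlier results of these data known. Genes named were, for each complex, the smallest p, the largest rise and fall and the 2 highest means, together with the core complex I, complex II, isoform and c subunit genes. Those described for not overlapping between groups, and Ndufv3, were chosen after their values were seen. From each pathway list the gene with the smallest p was named. Coordinates and promoter windows are from RefSeq (GRCm38.p6, which mm10 denotes), matched by gene identifier for all 77 genes, and 24 of these overlap another gene, so their reads may not be separable. Lengths and shared 50-base windows are from GENCODE M21 transcripts, using the transcript with the longest coding sequence. Level per kilobase is the mean normalized count divided by that length. Scaling, pseudocount, filter, replicate block and left-out libraries were varied.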

Additional observations from a re-analysis of the deposited data

How the results depend on the processing

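Past the threshold were 0 of the 77 genes under every alternative with more than 1 library in each group, the authors' deposited table included. The median log2 fold change of the 77 genes stayed between -0.07 and 0.02, also when leaving out each library in turn. With 3 libraries a group, small changes cannot be told from spread. edgeR and DESeq2 on recovered reads were planned and not run. Same-numbered libraries did not stand out as pairs. Their deviations from the group means correlated at -0.35, 0.17 and 0.17, and those of other pairs between -0.37 and 0.39. These correlations are not independent of each other and cannot exclude a shared litter or day. With the replicate block 1 gene in the whole table was called, against 12 without it, but the block left 2 residual degrees of freedom, against 4. Over the whole table, the count of genes called was 308 with the authors' own adjusted p-values, and between 1 and 120 when leaving out each library in turn. It was 120 without unchallenged replicate 2, 1 without POS-challenged replicate 2 or unchallenged replicate 3, and 2 without replicate 1 of either group, and the cause was not tested. The number of members under 0.2 in size, an alternative chosen after seeing the data, was 65 (of 71 genes, with a minimum mean of 100) to 72.

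Of 30 named genes, 15 did not change sign under the alternatives run, though Cox6b2 and Uqcrh came to 0.00 without POS-challenged replicate 3. Among the 15, Cox4i2 was between -0.52 and -0.26 (the smallest without unchallenged replicate 1) and Ndufa4l2 between -0.65 and -0.29 (the smallest without POS-challenged replicate 3). The others changed sign under at least 1. Quantile normalization turned Sdhc (0.01), Cox4i1 (0.03) and Cox6a1 (0.01). Without unchallenged replicates 1 and 3 together, values were -0.01 for Atp5b and Sdha, -0.05 for Atp5g3, Ndufa4 and Ndufv2, -0.03 for Ndufs1, -0.04 for Uqcrc2 and 0.01 for Ndufs3. Leaving out each library in turn, log2 fold changes were between -0.06 and 0.06 for Atp5g1, -0.03 and 0.10 for Atp5g3, -0.06 and 0.07 for Ndufa4, -0.02 and 0.09 for Ndufs1 and for Uqcrc2, -0.05 and 0.03 for Ndufs8, -0.02 and 0.05 for Sdha, -0.06 and 0.01 for Sdhc, -0.09 and 0.02 for Cox6a1, -0.17 and 0.03 for Cox8a, and -0.01 and 0.41 for Cox8b.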

Other observations

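The 2 lowest members, Ndufa4l2 and Cox4i2, are known in other cells as genes that respond to low oxygen, so other known targets of the hypoxia-inducible factors (HIF) were read from the same table. This list of 25 genes, of which 20 were measured, was chosen after some of these values had been seen. It gets no test, and the shares of all genes beside its counts are no evidence of a HIF response. In 14 of the 20, every POS-challenged library was below every unchallenged one, against 10.4% of all genes. Higd1a, already described above, is 1 of these 14. In 0 of the 20 was every POS-challenged library above. The authors' deposited table called 5 of them lower, where it called 1.68% of genes lower, and limma called 0 of 20, with 14 lower at an unadjusted p under 0.05, against 6.58% of all genes.

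Vegfa, the growth factor that maintains the vessels next to the RPE, had 24715, 23694 and 20071 normalized counts in POS-challenged libraries and 32218, 30070 and 29646 in unchallenged ones. Every POS-challenged library was lower, at a log2 fold change of -0.43 ± 0.10 (SE, adjusted p = 0.252, limma), and the adjusted p in the authors' deposited table was 0.00844. Fam162a, a mitochondrial protein, had 10134, 10407 and 9100 in POS-challenged libraries and 16737, 12844 and 13156 in unchallenged ones. Its log2 fold change was -0.52 ± 0.12 (SE, adjusted p = 0.24, limma), and the adjusted p in the authors' deposited table was 0.00716. Egln3, an oxygen-sensing hydroxylase that marks HIF for degradation, had 1871, 1784 and 2252 in POS-challenged libraries and 3517, 2380 and 2961 in unchallenged ones. Car9, a carbonic anhydrase, had 750, 876 and 662 in POS-challenged libraries and 1236, 1017 and 1021 in unchallenged ones. Bnip3, which drives removal of mitochondria, had 9010, 8413 and 8703 in POS-challenged libraries and 11126, 9875 and 10624 in unchallenged ones. These 3 genes were also lower without overlap, with adjusted p-values of 0.0276, 0.0276 and 0.0431 in the authors' deposited table.

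Pdk1, the kinase that holds pyruvate back from the mitochondria, had 4187, 4081 and 3631 in POS-challenged libraries and 5168, 4589 and 4711 in unchallenged ones, lower without overlap (log2 fold change -0.28 ± 0.08 SE, adjusted p = 0.31, limma). Not all listed genes stood apart. The glucose carrier Slc2a1 had 30263, 29618 and 23706 in POS-challenged libraries and 28939, 30533 and 29479 in unchallenged ones, and P4ha1, a collagen-modifying enzyme, had 16924, 16710 and 16045 in POS-challenged libraries and 16513, 16956 and 17737 in unchallenged ones, both with overlap. Leaving out each library in turn, between 17 and 20 of the 20 genes stayed negative and the median log2 fold change was between -0.34 and -0.24, beside -0.31 with all 6. The number at an unadjusted p under 0.05 was then between 10 and 13. Without unchallenged replicates 1 and 3 together, the libraries in which interferon-stimulated genes were high, 1 unchallenged library was left. In that setting 19 genes were negative and the median was -0.22. The mean log2 deviation of the 20 genes was -0.08, -0.12 and -0.25 in POS-challenged replicates 1, 2 and 3, and 0.25, 0.06 and 0.14 in unchallenged replicates 1, 2 and 3. It was highest in those same 2 unchallenged libraries, and the part of the interferon difference was not tested. With quantile normalization 16 genes were negative, with a median of -0.28.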
